A study of Mus musculus with 9 samples.

Results

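The nuclei described here were selected as mast cells of mouse epididymal adipose tissue, the visceral fat depot beside the testis. They were chosen with a fixed rule on 14 genes. A nucleus was taken when it had at least 1 transcript molecule (UMI, a count of distinct captured RNA molecules) in 2 or more of the mast cell genes Cpa3, Mcpt4, Tpsb2, Cma1, Hdc, Ms4a2 and Kit, and in no more than 1 of Adgre1, Mctp1, Pdgfra, Lama2, Plin4, Muc16 and Ptprb, which mark macrophages, progenitors, adipocytes, mesothelial cells and endothelial cells. Of 91687 barcodes, 76356 had 500 to 3000 detected genes and at most 40000 UMIs, and 930 of these nuclei (1.22%) met the rule. Because measured values of those genes chose the nuclei, their levels are a description and were not tested.

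Nuclei came from male C57BL/6J mice, with snap-frozen tissue of 5 mice pooled into 1 library for each of 9 diet groups, so no group had a replicate. Group C (18 weeks old), CC (26 weeks) and CCC (39 weeks) had eaten chow throughout; by the study's methods control mice ate a low-fat chow over the HFD period, and CC and CCC, like HC and HHC, were then switched to a standard chow. Group H (18 weeks old) had 12 weeks of high-fat diet (HFD) and HH (31 weeks old) 25 weeks. HC (26 weeks old) and HHC (39 weeks old) had the same 12 or 25 weeks of HFD followed by 8 weeks of chow, during which such mice lose weight. CCH (30 weeks old) had chow and then 4 weeks of HFD, and HCH (30 weeks old) had 12 weeks of HFD, 8 weeks of chow and a further 4 weeks of HFD. The library names carry 1 of 2 prefixes, S075 for C, H, HH, CCH and HCH and S019 for CC, CCC, HC and HHC, so that chow after HFD and HFD at harvest never share a prefix. Libraries held 22599619 to 66615262 UMIs, and no barcode of a selected nucleus occurred in another library. The fractions of a library are given with exact Clopper-Pearson 95% intervals, which cover counting error only. A lower share of nuclei and a lower RNA yield per nucleus cannot be told apart where nuclei are recognised by their transcripts.

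Mast cells are long-lived tissue leukocytes that store histamine, serotonin, heparin and proteases in cytoplasmic granules and release them on stimulation. The classical trigger is IgE bound to its high-affinity receptor FcεRI, and connective tissue mast cells also respond to peptides and drugs through Mas-related G protein-coupled receptors. Their survival depends on stem cell factor, the ligand of the receptor tyrosine kinase Kit, and their identity on the transcription factors Gata2 and Mitf.

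The sequences before the start of 4 mast genes are shown because Gata2 binds GATA motifs: Cpa3 and Ms4a2 belong to the rule, and Mrgprb2 and Mrgprb1 are receptor genes of 1 chromosomal cluster outside it whose counts are central below. Each run is the 250 bases before the RefSeq start on build GRCm38.p6, written 5′ to 3′ along the gene, with AGATAA or TGATAA on either strand in capitals.
Cpa3 promoter, chr3:20242182-20242431, minus strand: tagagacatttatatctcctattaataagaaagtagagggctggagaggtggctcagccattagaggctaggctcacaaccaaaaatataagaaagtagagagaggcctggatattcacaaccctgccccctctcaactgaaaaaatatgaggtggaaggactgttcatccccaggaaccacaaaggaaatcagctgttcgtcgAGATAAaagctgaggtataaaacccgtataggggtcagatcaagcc
Ms4a2 promoter, chr19:11623720-11623969, minus strand: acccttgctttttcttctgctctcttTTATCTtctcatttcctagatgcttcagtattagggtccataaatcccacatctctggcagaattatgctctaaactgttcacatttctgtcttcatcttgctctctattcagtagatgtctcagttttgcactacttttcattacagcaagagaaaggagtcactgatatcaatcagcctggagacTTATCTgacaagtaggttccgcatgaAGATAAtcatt
Mrgprb2 promoter, chr7:48558087-48558336, minus strand: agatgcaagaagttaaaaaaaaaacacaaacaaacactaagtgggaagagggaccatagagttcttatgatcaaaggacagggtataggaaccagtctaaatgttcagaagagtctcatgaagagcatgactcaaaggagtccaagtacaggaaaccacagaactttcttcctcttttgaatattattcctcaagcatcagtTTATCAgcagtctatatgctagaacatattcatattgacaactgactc
Mrgprb1 promoter, chr7:48456343-48456592, minus strand: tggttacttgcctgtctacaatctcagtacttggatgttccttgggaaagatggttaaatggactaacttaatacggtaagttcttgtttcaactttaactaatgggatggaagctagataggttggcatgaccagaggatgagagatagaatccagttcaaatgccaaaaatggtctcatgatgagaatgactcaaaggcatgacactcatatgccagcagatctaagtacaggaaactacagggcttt
Cpa3 (carboxypeptidase A3, a granule protease) held 1 match, 46 bases before its start. Ms4a2 (the β chain of FcεRI) held 3 matches, at 224, 37 and 11 bases. Mrgprb2, the mouse receptor for basic secretagogues, held 1 match at 48 bases, and none was found in this window of Mrgprb1. Over windows of 300 bases that reach 50 bases past the start, these letters occurred in 3 of 6 rule markers that had an entry (50%), in 5 of 22 leading genes outside the rule (22.7%) and in 18.8% of 26742 promoters. The letters CACGTG or CATGTG, which Mitf can bind, were searched in the same windows and occurred in 0 of 6 markers, 3 of 22 leading genes (13.6%) and 20.5% of all promoters. A match describes letters only, and Tpsb2 had no entry.

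The label held for part of the 930 nuclei. Among them, 631 (67.8%) had exactly 2 of the 7 markers, 120 had 3 and 179 had 4 or more. To check the label on genes the rule did not use, 12 mast genes were taken that lay under 50 CPM (UMIs of a gene scaled to a common total of UMIs) in macrophage, mesothelial and adipocyte nuclei: Gata2, Il1rl1, Fcer1a, Tpsab1, Slc18a2, Cd200r3, Mrgprb1, Mrgprb2, Cyp11a1, Tph1, Ndst2 and Csf2rb2. They were picked from 18 listed mast genes after their levels had been seen. Of the nuclei with 4 or more markers, 164 of 179 (91.6%, 95% interval 86.6 to 95.2%) had UMIs of 2 or more of the 12. This fell to 45 of 120 (37.5%, 28.8 to 46.8%) among nuclei with 3 markers and to 33 of 631 (5.23%, 3.63 to 7.27%) among those with 2. Of the 75426 nuclei outside the rule, 2.42% did. Median UMI counts were 2166 in nuclei with 2 markers and 1263 in those with 4 or more, and the part of depth was not tested.

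Il1rl1, Mrgprb1 and Gata2 showed the same gradient. Il1rl1, the receptor for IL-33, was detected in 7.29% of nuclei with 2 markers, 36.7% with 3 and 85.5% with 4 or more, against 4.81% of nuclei outside the rule. Mrgprb1 was detected in 5.07%, 24.2% and 78.2% of the same classes, against 1.22%. Gata2 was detected in 1.74%, 18.3% and 38.0%, against 1.78%, so nuclei with 2 markers did not stand above other nuclei for this factor. Other genes of the list of 18 rose less. The CPM in nuclei with 3 or more markers was 1.76 times that in nuclei with 2 for Rasgrp4, 1.87 for Hs3st1, 1.91 for Mitf and 1.96 for Csf2rb2, beside 28.0 for Il1rl1.

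**Figure D1:**
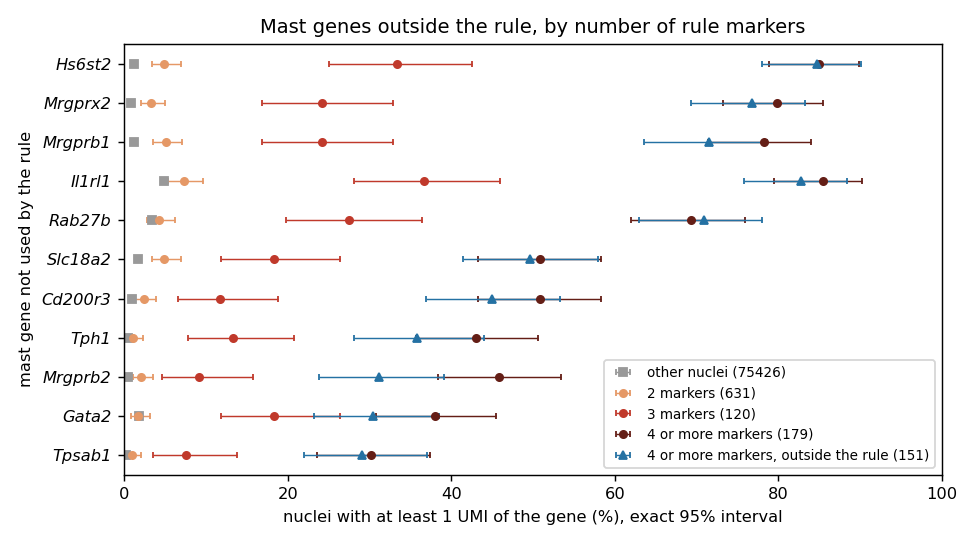
Share of nuclei with at least 1 UMI of each mast gene that the rule did not use (x axis, percent, with exact 95% intervals), by the number of rule markers in the nucleus; grey squares are nuclei outside the rule and blue triangles nuclei with 4 or more markers that the exclusion genes kept out. Il1rl1 rose from 7.29% with 2 markers to 85.5% with 4 or more, and the triangles lie beside the dark red points.

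The exclusion side of the rule also removed nuclei with many mast genes. In all, 330 nuclei had 4 or more of the 7 markers, and 151 of them failed on the exclusion genes. Of those 151, 135 (89.4%, 83.4 to 93.8%) had 2 or more of the 12 outside genes. Mctp1, which the rule takes as a macrophage gene, was detected in 294 of the 330 (89.1%) and in 151 of the 179 that passed (84.4%), and its level over nuclei with 3 or more markers was 1600 CPM, against 847 CPM in all other nuclei and 2296 CPM in macrophage nuclei. Adgre1, which encodes the macrophage protein F4/80, was detected in 2.23% of the 179 that passed, where the rule limits it, and in 50.3% of the 151 that failed, against 32.3% of nuclei outside the rule. The 151 also differed from the 179 on macrophage genes outside the rule, with Ctss in 58.9% against 29.1% and F13a1 in 21.9% against 5.59%, and in median UMI count (2525 against 1263). Just inside the rule stood the 631 nuclei with 2 markers and just outside it 5047 nuclei with 1 marker, of which 112 (2.22%) had 2 or more outside genes, and another 1167 nuclei had 2 or more markers but 2 or more exclusion genes.

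Mast cell RNA was also found in nuclei gated as other cell types. In HH, 8.94% (7.15 to 11.0%) of 895 mesothelial nuclei had 2 or more of the 7 markers, as did 11.1% of 551 adipocyte nuclei and 8.95% of 4816 macrophage nuclei, all above the 4.45% of HH nuclei that met the rule. Median UMI counts were 2546, 4609 and 2410 in those nuclei, against 1718 in the selected nuclei of HH. In H, the mesothelial share was 2.30% beside 1.27% by the rule, in HCH 2.51% beside 0.862%, in HHC 0.763% beside 0.560%, in CCC 0.592% beside 0.0866% and in C 0.209% beside 0.120%. Counts were small, at 2 of 262 nuclei in HHC, 1 of 169 in CCC and 2 of 959 in C. Of these libraries only HCH had a mesothelial interval (1.41 to 4.11%) apart from that of the rule (0.689 to 1.06%). In the other 3 libraries it lay lower, at 0.279% beside 0.439% in CCH, 0 of 199 nuclei in CC and 0 of 181 in HC. As point values, the adipocyte share lay above the rule's share in all 9 libraries, from 0.146% in C (4 of 2737 nuclei) to 11.1% in HH, and the macrophage share in all but C and CCH. Intervals lay apart from the rule's only in H, HH and HHC for adipocyte nuclei, and in these and HCH for macrophage nuclei. These nuclei carried no limit on exclusion genes, so the populations differ, and the rule's share is given below as a share of nuclei with such RNA and not as a number of mast cells. Selected nuclei were not removed from these gates, and 164 of the 930 also met the macrophage gate. The macrophage shares therefore include selected nuclei and are not those of a separate population. With 2 or more outside genes required as well, 0.335% (0.0692 to 0.976%) of mesothelial nuclei and 1.09% (0.401 to 2.35%) of adipocyte nuclei in HH still qualified, beside 1.18% (1.00 to 1.38%) of all HH nuclei selected by the rule, so that its interval lay above that of the mesothelial nuclei and within that of the adipocyte nuclei. The same criterion was met by 1.62% (1.28 to 2.02%) of HH macrophage nuclei and 2.01% (0.655 to 4.62%) of HH T or NK nuclei, which were the higher point values.

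**Figure D2:**
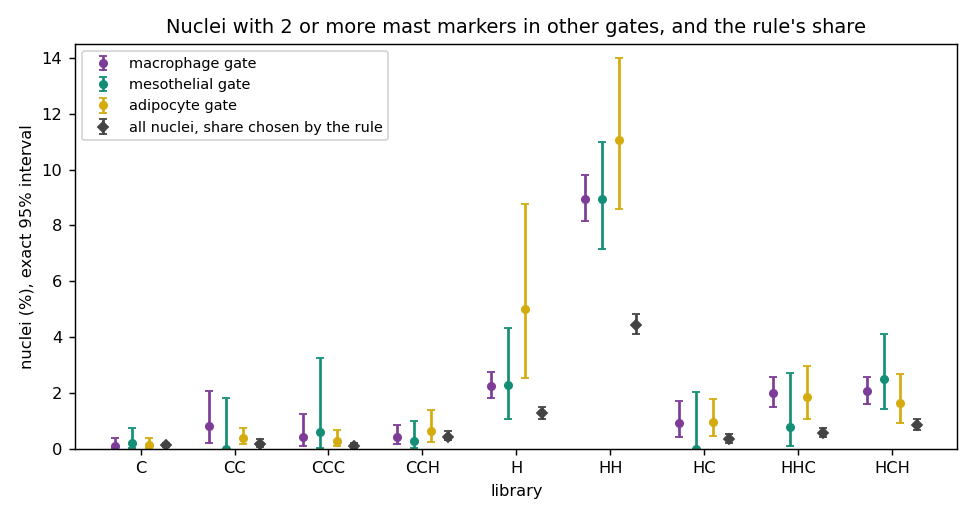
Share of nuclei with 2 or more of the 7 mast markers among macrophage, mesothelial and adipocyte nuclei of each library (circles), and the share of all nuclei that the rule selected (diamonds), in percent with exact 95% intervals. In HH the other gates, from which selected nuclei were not removed, reached 8.94% to 11.1%, above the rule's 4.45%.

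The spread into other nuclei differed between genes. In HH mesothelial nuclei, the level of the chymase Cma1 was 10.2% of its level in nuclei with 3 or more markers, and that of the chymase Mcpt4 was 9.39%. Tryptase Tpsb2 stood at 3.61%, Cpa3 at 1.64%, Kit at 0.741% and Ms4a2 at 0.310%. Nuclei with 3 or more markers held 38.5% of all Ms4a2 UMIs in the 76356 nuclei, 34.8% of Mrgprx2, 31.2% of Hs6st2 and 24.6% of Cpa3, but only 6.00% of Mcpt4 and 5.00% of Cma1. The descriptions below rest on the 299 nuclei with 3 or more markers, of which HH gave 212, H 36, HHC 16, HCH 15, CCH 9, HC 7, C and CC 2 each and CCC 0.

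These nuclei carried RNA of genes known from connective tissue mast cells. Chymase and tryptase genes were present by construction of the rule (Mcpt4 411 CPM, Cma1 344 CPM, Tpsb2 988 CPM over the 299 nuclei), while the mucosal mast cell proteases Mcpt1 and Mcpt2 and the basophil protease Mcpt8 had 0 UMIs in these nuclei. Tryptase Tpsab1, which lies beside Tpsb2 on chromosome 17 and shares much of its sequence, had 100 UMIs (211 CPM, against 1.15 CPM in other nuclei). How reads were divided between such near copies was not tested.

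Outside the rule, the genes that stood highest above other nuclei of the same libraries were tested on UMI sums per library with edgeR's quasi-likelihood test, library as block and Benjamini-Hochberg adjustment. Among the 930 nuclei, 822 of 14907 genes (5.51%) were called higher and 693 (4.65%) lower. With RLE scaling in place of TMM these became 1002 and 394, and the median log2 difference over all genes moved from −0.16 to 0.01. Among the 299 nuclei with 3 or more markers, 436 of 14265 genes (3.06%) were higher and 1062 (7.44%) lower. The 25 leading genes outside the rule were all called in both sets, and their log2 changes were larger in the 299 nuclei except for Cdr1os, 1700012P22Rik and Lrrc6, which had only 13, 8 and 13 UMIs there.

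Hs6st2, a 6-O-sulfotransferase of heparan sulfate and heparin, led the list by its log2 difference of 5.64 in the 930 nuclei. Its level in the nuclei with 3 or more markers was 2781 CPM in CCH, 1867 CPM in H, 1526 CPM in HH, 2506 CPM in HCH, 1576 CPM in HC and 1717 CPM in HHC, beside 7.89 CPM in all other nuclei of the series. Each of these 6 libraries lay far above the other nuclei, and the log2 difference was 7.16 ± 0.48 (SE, 8 libraries, adjusted p = 9.5e-47, edgeR), higher in 8 of 8 libraries. Against macrophage nuclei the log2 difference was 7.56.

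The Mas-related receptors formed the next group. Mrgprx2, Mrgprb1 and Mrgprb2 lie in a row on the minus strand of chromosome 7 without overlap (GRCm38, 48478619 to 48499321, 48444113 to 48456342 and 48550965 to 48558086). Mrgprx2 stood 7.21 ± 0.48 log2 units above other nuclei, Mrgprb1 6.91 ± 0.49 and Mrgprb2 6.73 ± 0.41, each with edgeR adjusted p under 0.05. Mrgprx2 and Mrgprb1 were higher in 8 of 8 libraries and Mrgprb2 in 6 of 8. Family members share sequence, and the division of reads among them was not tested.

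Genes for amines and their storage followed. Tph1, which makes the serotonin precursor, stood 6.82 ± 0.41 log2 units above other nuclei, the serotonin transporter Slc6a4 5.77 ± 0.38 and the vesicular monoamine transporter Slc18a2 5.19 ± 0.40. Of 12 listed genes for amines and granule matrix that were tested and lay outside the rule, 6 were called higher (Tph1, Slc18a2, Maob, Ndst2, Ddc and Srgn) and 0 lower, beside 3.06% higher and 7.44% lower of all genes in that fit, with a median of 1.04 beside −0.54 over all genes tested. Maob degrades amines, Ndst2 is the heparin N-sulfotransferase of mast cells, and Srgn is the serglycin core protein that carries it. Hdc, which makes histamine and belongs to the rule, had 1043 CPM in CCH, 320 CPM in H, 826 CPM in HH, 490 CPM in HCH, 420 CPM in HC and 320 CPM in HHC, given as a description.

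Of 17 tested genes of the IgE receptor pathway outside the rule, 4 were called higher in nuclei with 3 or more markers (Prkcb 1.60, Lat2 1.57, Inpp5d 1.53 and Lcp2 1.16 log2 units) and 0 lower, beside 3.06% higher among all genes of that fit, and none of the 4 but Lat2 was also called above macrophage nuclei. Among all 930 nuclei 0 of the 17 were higher and Syk and Gab2 were lower, beside 5.51% higher and 4.65% lower of all genes in that fit. Against macrophage nuclei, 1 of 16 tested was higher in the 930 (Plcg1) and 9 were lower, beside 1333 higher and 1310 lower of 10689 genes. Fcer1a, the IgE-binding chain, was too sparse for the test, with 31 UMIs (65.4 CPM, against 1.19 CPM in other nuclei). Fcer1g, the signalling chain that macrophages share, had 236 CPM beside 89.8 CPM in other nuclei and 170 CPM in macrophage nuclei, with a log2 difference from other nuclei of 0.11 ± 0.44 (adjusted p = 0.905).

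Among growth factor and cytokine receptors, 3 of 9 genes tested were higher and 0 lower, beside 3.06% and 7.44% of all genes in the fit. Il1rl1 had 3012 CPM in CCH, 1968 CPM in H, 1553 CPM in HH, 1580 CPM in HCH, 630 CPM in HC and 1118 CPM in HHC, against 25.7 CPM in all other nuclei. It was higher in 8 of 8 libraries (log2 difference 4.98 ± 0.43, adjusted p = 3.69e-28, edgeR). The IL-18 receptor Il18r1 (3.03 ± 0.30) and Csf2rb, the shared chain of IL-3 and GM-CSF receptors (1.37 ± 0.39), were the other two. Of 14 other receptors, beside the same shares, 5 were higher (Mrgprb1, Mrgprb2, Cd200r3, the prostaglandin receptor Ptger3 at 1.57 and the cannabinoid receptor Cnr2 at 1.24) and Cd300lb was lower (−1.50 ± 0.49). Neither Csf2rb nor Cnr2 was called above macrophage nuclei. In that comparison 2 of 11 other receptors tested were higher and 4 lower, beside 374 higher and 1035 lower of 8817 genes.

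Of 18 transcription factors tested, 5 were higher and 0 lower (3.06% and 7.44% of all genes). In the 930 nuclei 4 were higher and Zeb2, Lmo2 and Mitf were lower, beside 5.51% higher and 4.65% lower of all genes in that fit. Gata2, whose motif letters are marked in the sequences above, stood 4.88 ± 0.34 log2 units above other nuclei, Myb, a factor of haematopoietic progenitors, 4.76 ± 0.32, and Tal1, a partner of Gata factors in blood lineages, 3.53 ± 0.27. Ikzf2 (1.65) and Meis2 (1.30) followed. Gata1 had 25 UMIs (52.8 CPM, against 0.480 CPM) and was not tested. Mitf, although a mast cell factor, had 1519 CPM beside 1131 CPM in other nuclei and 2118 CPM in macrophage nuclei, with a log2 difference of −0.22 ± 0.36 from other nuclei (adjusted p = 0.738).

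In the release machinery, 4 of 14 genes were higher, beside 3.06% of all genes. Rab27b, a GTPase that docks granules, stood 4.55 ± 0.42 log2 units above other nuclei, and Stx11 (1.70), Stx3 (1.28) and Unc13d (1.28), which take part in granule fusion, followed. Of these, Unc13d was not called above macrophage nuclei. Rab3d was called lower with 0 UMIs in the 299 nuclei and 8.85 CPM elsewhere. Its fitted fold is no bound.

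Genes for lipid mediators and cytokines gave 2 higher calls each, beside 3.06% higher among all genes of the fit. Alox5, which starts leukotriene synthesis (2.61 ± 0.36), and the prostaglandin D2 synthase Hpgds (1.18 ± 0.41) were 2 of 10 tested eicosanoid genes called higher, with 0 lower. Il4 had 42 UMIs (88.6 CPM, against 2.97 CPM; log2 difference 4.05 ± 0.24) and Ccl2 a difference of 1.10 ± 0.39, the 2 of 6 cytokine genes called. Il3, Il5, Il13, Il1b, Csf2, Areg, Lif and Ccl1 had 0 UMIs, Tnf had 6 and Il6 had 5.

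Other leading genes fell outside these groups. They were Rab44 (5.91), a large Rab GTPase of mast cell granule release, Ppp1r14c (5.84), an inhibitor subunit of protein phosphatase 1, the G protein subunit Gna14 (4.75), the phosphodiesterase Pde1c (4.82), the cell adhesion gene Cntn4 (5.21), the glutamate receptor subunit Grik2 (4.81), the synaptotagmin-like gene Sytl3 (4.70), the solute carrier Slc35f3 (4.94), the steroid-forming enzyme Cyp11a1 (5.47) and the uncharacterised genes 1700111E14Rik (5.64) and Gm973 (3.91), all as log2 differences between nuclei with 3 or more markers and other nuclei. The CD200 receptor family gene Cd200r3, which basophils and mast cells both carry, stood at 5.85 ± 0.41. Against macrophage nuclei 374 of 8817 genes (4.24%) were called higher in the 299 nuclei and 1333 of 10689 (12.5%) in all 930, and each of the 25 leading genes that passed the low-count filter of the comparison with macrophage nuclei was called higher in it.

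Markers of other cell types were not absent. Of 12 macrophage genes, 10 lay outside the rule, and in the 299 nuclei 3 of them were called lower than in other nuclei (Cd163, F13a1 and Mrc1) and 0 higher, beside 7.44% of all genes lower in that fit. Their summed level, Adgre1 and Mctp1 included, was 4622 to 6716 CPM in the 6 libraries with 7 or more such nuclei, beside 2845 to 7131 CPM in the other nuclei of those libraries. All 12 were detected in H, HH and HCH and 0 of 12 in C. Of the 299 nuclei, 48 also met the macrophage gate and 40 (13.4%) were flagged as doublets by Scrublet score. The number flagged in each library was fixed in advance. HH gave 34 of the 40, among its 212 nuclei, and 10.7% of all HH nuclei were flagged. Without doublets, 735 genes were higher and 684 lower in the selected nuclei than in other nuclei. The part of the macrophage RNA in the results was not tested. Of 6 epithelial genes, 5 were called higher than in other nuclei in the 930 nuclei (Pax8, Epcam, Esrp1, Cdh1 and Krt8) but 1 (Epcam) in the 299, beside 5.51% and 3.06% of all genes. The T or NK genes Prkcq, Bcl11b and Skap1 and the dendritic genes Flt3 and Clec9a were higher in the 930, of 7 tested in each list, and Prkcq and the B cell gene Cd79b in the 299. Of 10 immediate early genes tested in the 299, 0 were higher and Atf3 and Junb were lower, and of 13 lysosome and lipid-handling genes 0 were higher and 3 (Abca1, Cd36 and Atp6v0d2) lower, beside the same 7.44%. The basophil proteases Mcpt8 and Prss34 had 0 and 10 UMIs.

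**Figure D3:**
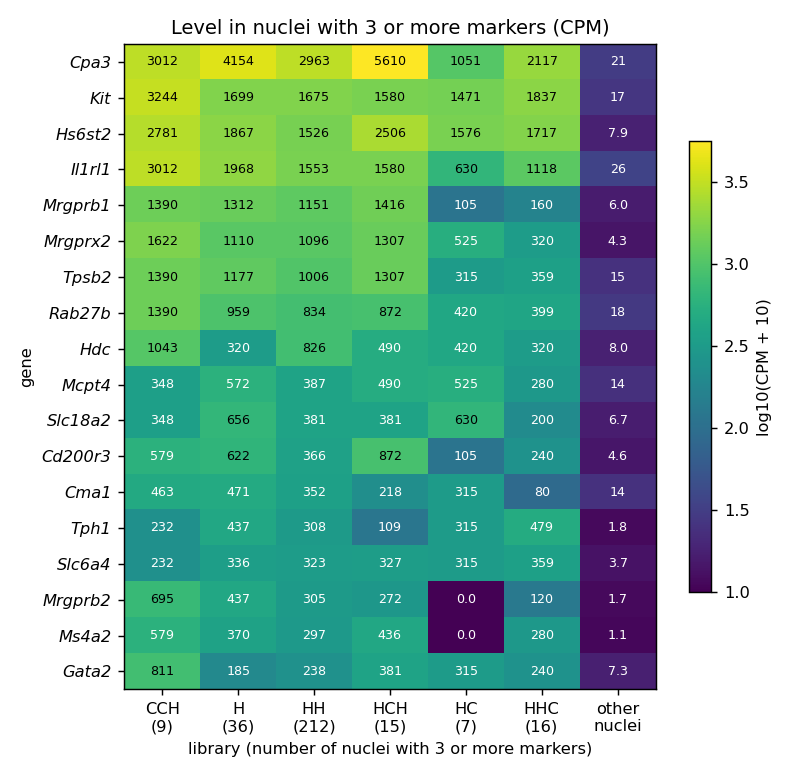
Level in nuclei with 3 or more markers (CPM, printed in each cell, colour on a log10 scale of CPM + 10) in the 6 libraries with 7 or more such nuclei, with all other nuclei of the series in the last column; numbers of nuclei stand under the library names. Kit stayed between 1471 and 3244 CPM in the 6 libraries, whereas Mrgprb1 was 105 and 160 CPM in HC and HHC and 1151 to 1416 CPM in the other 4 libraries.

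The share of nuclei with mast markers differed between the libraries of the 9 diet groups. By the rule, CCC had 0.0866%, C 0.120% (0.0657 to 0.202%) and CC 0.169%, while H had 1.27% (1.06 to 1.51%) and HH 4.45% (4.10 to 4.81%). After weight loss HC had 0.334% (0.198 to 0.528%) and HHC 0.560% (0.417 to 0.736%), and after a short late HFD CCH had 0.439% (0.301 to 0.619%) and HCH 0.862% (0.689 to 1.06%). The 3 chow libraries were lowest and HH stood above all others, but such RNA was also found in nuclei of other types, as given above.

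Counted on nuclei with 3 or more markers, the chow libraries C, CC and CCC stayed lowest and H and HH highest, while HC, HHC, CCH and HCH changed order. H had 0.366% (0.257 to 0.507%) and HH 1.59% (1.38 to 1.82%), whereas CCH, HCH, HC and HHC had 0.124%, 0.152%, 0.130% and 0.176%. C had 0.0172%, CC 0.0483%, and CCC had 0 of 5771 nuclei, where 3 counts of the total, the limit taken for a count of 0, would be 0.0520%. HH stood 4.34 times above H (exact interval 3.04 to 6.37), but HH was 31 weeks old and H 18 weeks. HC stood at 0.355 of H (0.133 to 0.808) and HHC at 0.111 of HH (0.0620 to 0.184). HC, HHC, CCH and HCH had intervals that overlapped one another, and HCH against CCH gave a ratio of 1.23 (0.505 to 3.19), beside 1.96 (1.29 to 3.05) by the rule. With 3 or more markers, 0.670% (0.246 to 1.45%) of HH mesothelial nuclei, 2.36% (1.26 to 4.00%) of HH adipocyte nuclei and 2.28% (1.88 to 2.75%) of HH macrophage nuclei qualified, so that the HH share lay above the mesothelial value only, and with an interval that overlapped it. Selected nuclei were not removed from these gates, and 48 of the 299 over all libraries met the macrophage gate.

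Among rule-selected nuclei with 2 or more of the 12 outside genes, HHC and its chow control CCC differed in count. HHC held 21 such nuclei of 9102 (0.231%, 0.143 to 0.352%) and CCC 0 of 5771, with the same limit of 0.0520%. HC held 7 of 5385 (0.130%) and CC 3 of 4144 (0.0724%), a ratio of 1.80 with an interval of 0.410 to 10.8. With 4 or more markers and no exclusion genes applied, HHC stood 4.12-fold above CCC (1.43 to 16.2) and HC at 0.962 of CC (0.207 to 4.85). With 1 library per group these intervals compare libraries and not diets.

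**Figure D4:**
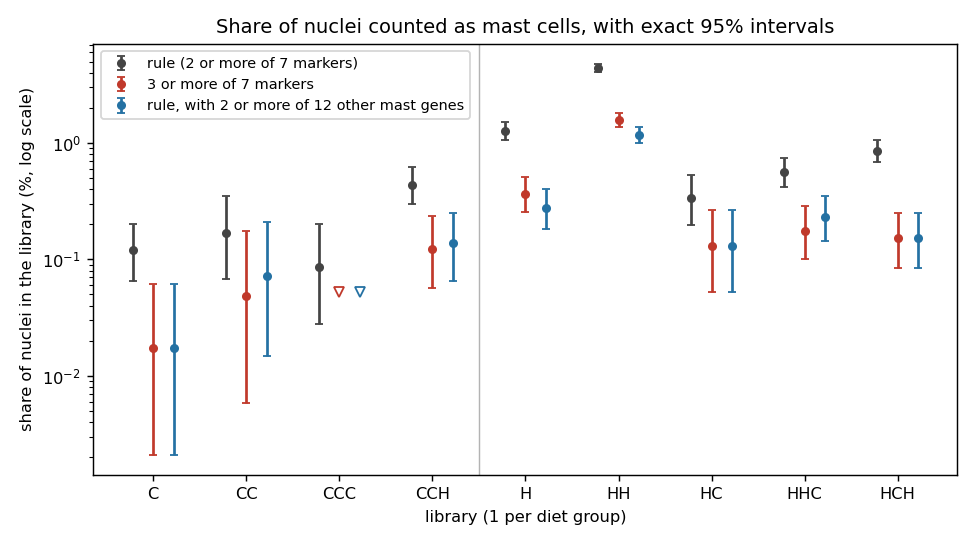
Share of nuclei in each library with mast markers (log scale, percent, exact 95% intervals) by the rule, with 3 or more markers, and by the rule with 2 or more of 12 further mast genes; open triangles mark the upper limit for a count of 0 in CCC and the grey line separates libraries without and with 12 weeks or more of HFD. HH is highest at 4.45%, 1.59% and 1.18%.

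The division by diet history that crosses both library prefixes set the 5 libraries with at least 12 weeks of HFD at any time (H, HH, HC, HHC and HCH) against the 4 without (C, CC, CCC and CCH). The mean log2 share by the rule was 2.56 higher with HFD history, a 5.89-fold difference (exact permutation test over 126 arrangements, two-sided, p = 0.0317, 5 against 4 libraries), with overlapping groups, since CCH (0.439%) exceeded HC (0.334%). With 3 or more markers the difference was 8.57-fold and the groups did not overlap (p = 0.00794, the smallest the exact test can give). That gap was narrow, between HC at 0.130% (7 nuclei, 0.0523 to 0.268%) and CCH at 0.124% (9 nuclei, 0.0565 to 0.234%). With 2 or more outside genes the difference was 7.21-fold (exact p = 0.0159), and the groups overlapped (CCH 0.137%, HC 0.130%). They also overlapped with 4 or more markers (CCH 0.110%, HC 0.0371%). By the rule without doublets the difference was 5.78-fold (exact p = 0.0238). Permuted within library prefixes, the exact p-values were 0.0167 by the rule, 0.0333 with 3 or more markers and 0.0333 with outside genes, and the difference by the rule was 7.38-fold among S075 libraries and 3.58-fold among S019 libraries. With 4 or more markers and no exclusion genes applied, it was 5.02-fold (exact p = 0.0397), but the exact p within prefixes was 0.0667, with 10.2-fold among S075 and 1.99-fold among S019 libraries. Without HH the difference by the rule was 4.04-fold (exact p = 0.0571, 4 against 4 libraries), and over all single left-out libraries it lay between 4.04-fold and 8.14-fold with exact p from 0.0286 to 0.0714, under 0.05 only without HC or without CCH.

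Thinned to 1000 UMIs per nucleus to set nuclei at equal depth, the shares were 0.159% in CCH, 0.573% in H, 2.52% in HH, 0.297% in HCH, 0.226% in HC and 0.514% in HHC, and 0.0501%, 0.0973% and 0.0859% in C, CC and CCC. The difference by HFD history was 6.08-fold (exact permutation p = 0.0159, 5 against 4 libraries). From 4112 to 12274 nuclei per library reached this depth, and shallower ones were left out. In CCH 367 of 7287 nuclei were too shallow. The median UMI count of nuclei with 3 or more markers was 922 in CCH and 1014 in HCH, against 3240 and 3029 in all nuclei there. Thinning thus left out a larger part of such nuclei than of others in CCH, and it did not remove the effect of depth.

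Within the selected nuclei, genes were also compared by HFD history. Of 2239 genes tested on the 930 nuclei (edgeR, library prefix as covariate), 156 (6.97%) were higher with HFD history and 57 (2.55%) lower. In all other nuclei of the same libraries, the same comparison tested 18981 genes and called 2396 higher and 1729 lower. Of the 10 highest-ranked, Ctss and C1qb were on the macrophage list and Ctsd on the lysosome list. Ctss, a lysosomal protease of macrophages, was at 0 CPM in the selected nuclei of the chow libraries (C, CC, CCC), 25.0 CPM in CCH, 465 CPM in H, 507 CPM in HH, 311 CPM in HCH, 213 CPM in HC and 854 CPM in HHC, and 25.2 to 65.3 CPM against 214 to 598 CPM in the other nuclei of the same 2 groups of libraries. The cathepsin Ctsd (log2 3.68 ± 0.59), ferritin Fth1 (4.12 ± 0.66) and the motor gene Myo1f (2.95 ± 0.44) each had adjusted p = 0.0108 and 1 to 9 UMIs in each library without HFD history. In the other nuclei these 3 genes differed by 3.43, 2.60 and 2.35 log2 units. The complement gene C1qb, the adaptor Tyrobp, the cathepsin Ctsz, the exchange factor Dock11, Mmp12 and Cyba were called at the same adjusted p but, like Ctss, were at 0 in 1 or more of the 4 libraries without HFD history. Those libraries had 7230 to 80078 UMIs in selected nuclei. All 10 genes, Ctsd, Fth1 and Myo1f included, therefore passed the filter through the HFD libraries, where they were high. Their calls are no independent support for a change, and the fitted folds of genes at 0 are no bound.

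For Dock11 the log2 difference was −0.09 in the other nuclei (edgeR adjusted p = 0.714). Of 12 tested lysosome and lipid-handling genes 10 were called higher in the 930 nuclei and 0 lower, beside 6.97% and 2.55% of all genes. Gpnmb had 0 UMIs in the selected nuclei of all 4 libraries without HFD history and passed the filter through the others, so this count is no support for a change. Macrophage genes summed to 271 to 830 CPM in nuclei with 2 markers from the 4 libraries without HFD history and to 1428 to 11204 CPM in those from the 5 with it. Their part in these calls was not tested. Genes called lower included Plekha5 (−1.65), Unc13b (−1.95), Ift88 (−2.18), Fam13a (−1.60), Ptprd (−1.36), the pyruvate carboxylase gene Pcx (−1.49), Acss3 (−1.88) and Acsbg1 (−2.85), which activate fatty acids, Kif9 (−2.81) and Pcnx (−1.36). Unc13b, Ift88, Pcx, Kif9 and Pcnx reached at most 107, 74.9, 112, 56.2 and 112 CPM in the HFD libraries. They passed the filter through the 4 libraries without HFD history, where they were high. Their calls are no independent support for a change. In nuclei with 2 markers, epithelial genes summed to 420 to 692 CPM without HFD history and to 63.2 (HH) to 714 CPM (HC) with it. Adipocyte genes summed there to 3765 to 6639 CPM and 2999 to 4912 CPM. The part of such RNA in the lower calls was not tested. Restricted to the 299 nuclei, the fit tested 170 genes and called Gpnmb and Alcam only, and without library C edgeR called 0 genes in the 930 nuclei, with 508 of 2667 at an unadjusted p under 0.05.

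Of 5 tested mast genes from the list of 18 outside the rule, only Mitf was called by HFD history (1.10 ± 0.28, adjusted p = 0.0329, edgeR), beside the 6.97% of all genes called higher, and it differed by 1.30 in the other nuclei. The log2 differences were 0.84 for Il1rl1 (adjusted p = 0.316), 0.99 for Mrgprb1 (0.225), 1.02 for Mrgprx2 (0.235), 1.19 for Hs6st2 (0.132) and 1.00 for Rab27b (0.294), and for the rule's own genes they were 0.13 for Kit, 1.43 for Cpa3 and −0.12 for Hdc. In the other nuclei, Cpa3 differed by 3.11, Mcpt4 by 2.42, Tpsb2 by 2.31 and Cma1 by 2.87 log2 units between the same libraries, and Kit by 0.06 and Hdc by −0.09. As genes of the rule, these 6 are given as a description. Other lists had more calls by HFD history, beside the same 6.97%. Higher were 4 of 7 tested IgE pathway genes (Syk, Prkcb, Inpp5d and Lyn), 3 of 7 transcription factors (Runx1, Zeb2 and Mitf) and 5 of 6 macrophage genes outside the rule. None of these lists had a lower call, and the part of macrophage RNA in them was not tested. Syk and the macrophage genes Gpnmb, Ctss, C1qb and Lyz2 reached down to 0 CPM in the selected nuclei of libraries without HFD history. They passed the filter through the HFD libraries, where they were high. The counts of the IgE pathway and macrophage lists are therefore no support for a change.

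The receptor gene Mrgprb1 had few UMIs after weight loss. In nuclei with 3 or more markers, Mrgprb1 had 1 UMI in HC (105 CPM, Poisson 95% interval 2.66 to 585) and 4 UMIs in HHC (160 CPM, 43.5 to 409). In libraries on HFD at harvest it had 1312 CPM (1037 to 1637) in H, 1151 CPM (1041 to 1271) in HH, 1390 CPM (718 to 2429) in CCH and 1416 CPM (925 to 2075) in HCH. The 2 groups of libraries did not overlap, while Kit was 1471 CPM in HC and 1837 CPM in HHC, against 1580 to 3244 CPM in the other 4 libraries. In edgeR on these 6 libraries, a comparison chosen after the values were seen, 437 genes were tested, of which 2 (0.458%) were higher and 1 (0.229%) lower in HC and HHC. The lower one was Mrgprb1, by −3.09 ± 0.47 log2 units (adjusted p = 0.00591, 2 against 4 libraries), and in all other nuclei the difference was −0.99 (adjusted p = 0.699). Mrgprb1 passed the low-count filter through the libraries on HFD, where it was high, so this p describes a difference already seen and is no independent support for it.

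The call rested on few UMIs. Without HC the difference was −2.94 and without HHC −3.50 log2 units. Each of these fits leaves 1 library on chow after HFD, so only the size of the difference is given. Mrgprx2 had a negative difference that did not pass (−1.57, adjusted p = 0.123), as had Il1rl1 (−0.96, 0.470), whose libraries did not overlap either, and Hs6st2 (−0.21, 0.897). The rule's own genes differed by −1.69 (Tpsb2), −1.14 (Cpa3) and −0.10 (Kit) log2 units, as a description, and Mrgprb2 had 0 UMIs in HC and 3 in HHC. The 2 genes called higher, Gm42418 (4.84) and Cmss1 (3.51), had 4.38 and 3.84 in the other nuclei, where 0 of 19657 genes were called in either direction and 3068 had an unadjusted p under 0.05 (edgeR). Weight loss and library prefix cannot be told apart in this comparison.

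Taking all nuclei with 4 or more markers, whatever the exclusion genes, brought in the chow libraries. Mrgprb1 had 1 UMI in the 5 such nuclei of HC (98.1 CPM), 9 UMIs in the 26 of HHC (109 CPM), 3 in the 4 of CC (232 CPM), 8 in the 4 of CCC (950 CPM) and 3 in the 2 of C (472 CPM). H had 1538 CPM, HH 1476 CPM, CCH 1058 CPM and HCH 1136 CPM. By CPM, the 5 libraries on chow at harvest thus lay below the 4 on HFD, with CCC close to CCH, and HC and HHC were the lowest. Per 100 Kit UMIs, Mrgprb1 was 6.67 in HC, 18.4 in HHC, 25.0 in CC, 72.7 in CCC and 150 in C. The 4 on HFD had 48.4 to 81.5, so C (2 Kit UMIs) and CCC (11 Kit UMIs) did not lie below them on this scale. As these nuclei were chosen on measured markers and C, CC and CCC gave 2 to 4 each, the values are a description.

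In this set other mast genes were lower by CPM in the libraries on chow at harvest as well. Mrgprx2 was 157 CPM in C, 387 CPM in CC, 356 CPM in CCC, 393 CPM in HC and 254 CPM in HHC, against 1013 to 1354 CPM in H, HH, CCH and HCH. Hs6st2 was 157 CPM in C, 620 CPM in CC, 1424 CPM in CCC, 785 CPM in HC and 520 CPM in HHC, against 1894 to 2886 CPM in those 4 libraries. Il1rl1 was 472 CPM in C, 542 CPM in CC, 593 CPM in CCC, 785 CPM in HC and 629 CPM in HHC, against 1846 to 2437 CPM. By CPM, Mrgprb1 was 1 of several genes with low values in HC and HHC. Per Kit UMI, HC and HHC together stood at 0.203 (0.0971 to 0.376) of H, HH, CCH and HCH together for Mrgprb1. For Il1rl1 this ratio was 0.916 (0.694 to 1.19) and for Hs6st2 0.764 (0.565 to 1.01), with intervals that included equality. Mrgprx2, Cpa3 and Tpsb2 stood at 0.557, 0.730 and 0.531, with intervals below 1. As Kit belongs to the rule, these ratios are a description. Kit, a gene of the rule, was 315 CPM in C, 930 CPM in CC, 1306 CPM in CCC, 1472 CPM in HC and 592 CPM in HHC, against 1750 to 2186 CPM. The level of Kit in HHC depended on which nuclei were taken, being 1837 CPM in those with 3 or more markers that passed the exclusion genes. Of nuclei with 4 or more markers, 7 of 26 passed the exclusion genes in HHC and 2 of 5 in HC. In CC, CCC and C, 1 of 4, 0 of 4 and 2 of 2 passed. In H, HH, CCH and HCH, 24 of 35, 127 of 228, 8 of 9 and 8 of 17 passed. The part of other RNA in these CPM was not tested.

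**Figure D5:**
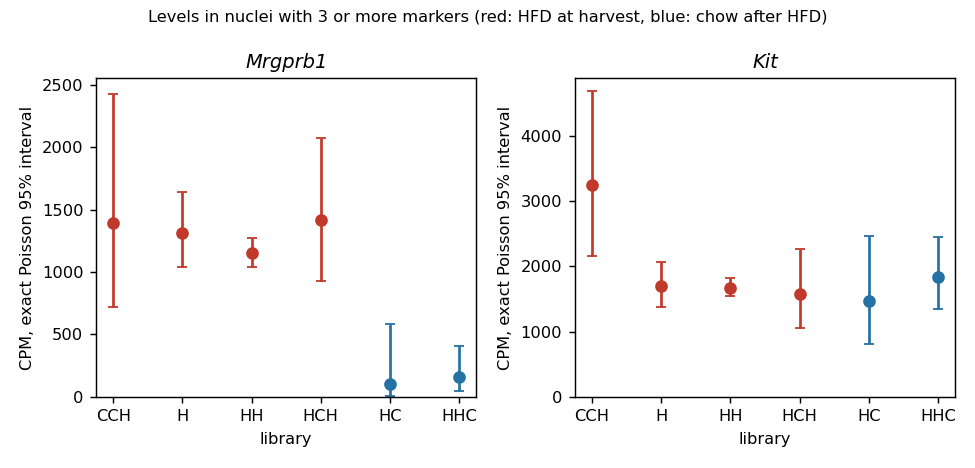
Mrgprb1 (left) and Kit (right) in nuclei with 3 or more markers, in CPM with exact Poisson 95% intervals, for libraries on HFD at harvest (red) and on chow after HFD (blue). Mrgprb1 lay between 1151 and 1416 CPM in red and at 105 and 160 CPM in blue, and Kit lay between 1471 and 3244 CPM over all 6.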

How the data were processed

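Single-nucleus RNA of 9 pooled libraries was measured with 10x Genomics 3′ chemistry. The authors aligned reads to mm10 with introns included in Cell Ranger 6.1.2 and deposited matrices of raw UMI counts per gene and barcode. They further used Seurat 4.1.0, a test of ambient RNA and a doublet caller, whose output is not part of these counts. Each library was a group by the labels, so 1 sample per group carried all comparisons. Barcodes with 500 to 3000 genes and up to 40000 UMIs were kept, and the 14-gene rule was applied to raw counts. Doublets were scored with Scrublet in scanpy 1.11.5. The highest scores were flagged up to a preset number per library, at a rate of 0.8% per 1000 nuclei. Flagged nuclei were removed only in an alternative. Macrophage nuclei had UMIs in 3 or more of Adgre1, Mctp1, Mrc1, F13a1, Csf1r and C1qa, and mesothelial, adipocyte and T or NK nuclei were gated in the same way on their own markers.

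UMI sums per library were tested with edgeR 4.0.16 (R 4.3.3) by quasi-likelihood, TMM scaling, filterByExpr and Benjamini-Hochberg adjustment at 0.05, and DESeq2 1.42.0 was an alternative. Shares were compared by exact permutation of libraries (scipy 1.17.1). CPM are UMIs scaled to a common total over the nuclei summed, without length correction, so levels of different genes were not ranked. Named genes were the 25 with the largest log2 difference among those called higher in the 930 nuclei and outside the rule. These had 50 or more UMIs over the 930 nuclei together and at least 1 UMI there in 6 or more libraries. Also named were the 5 lowest called, up to 10 per direction by HFD history, and genes of the role lists. Of the 5 lowest called, AC103362.1, Hmgn5, Neto1 and Cd209b had 0 UMIs in nuclei with 3 or more markers and P2ry2 had 1. The fits of the 930 nuclei against other nuclei and by HFD history were run on simulated counts. The fits on nuclei with 3 or more markers, against macrophage nuclei and after weight loss were not. The members and gene lists were chosen with earlier results of these data known, and Gm42418, Cmss1, Gpnmb, Alcam, Hdc by library and the weight loss comparison were singled out after their values were seen. Shares in which a library had 0 nuclei had 0.5 added to every count. Intervals cover counting error only. With 1 library per group, p-values rest on libraries of different diets and ages, and the spread between replicate pools of a group was not measured.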

Additional observations from a re-analysis of the deposited data

Results flagged for a closer look

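Among the 5 libraries with HFD history, HH stood apart from the other 4 in every way of counting that was examined for this, with a share of 4.45% by the rule, 1.59% with 3 or more markers, 2.52% after thinning and 1.18% with 2 or more further mast genes. Of HH mesothelial nuclei, 8.94% had 2 or more markers.

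Among the 4 libraries on HFD at harvest, 4 gene levels in nuclei with 3 or more markers had 1 library far from the others. In CCH, Kit was high at 3244 CPM, which as a gene of the rule is a description only, Myb was high at 811 CPM and Slc6a4 was low at 232 CPM. In H, Slc18a2 was high at 656 CPM. CCH held 9 such nuclei and H 36. In all, 36 groups were examined and 8 stood out. The flags for HH came from overlapping sets of nuclei of 1 library, and those for Kit, Myb and Slc6a4 from the same 9 nuclei of CCH with 8631 UMIs. The groups were thus not independent, and the 8 cannot be set against the chance of about 1 in 20 for a single group.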

How the results depend on the processing

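The HFD-history difference in share (log2 2.56) kept its direction in every alternative run and lost significance with no exclusion gene allowed (2.12, exact permutation p = 0.0873), with 4 or more markers (2.34, p = 0.0794) and, permuted within prefixes, with 4 or more markers whatever the exclusion genes (2.18, p = 0.0667). Leaving out 1 library gave 2.01 to 3.02, with p from 0.0286 (without HC) and 0.0357 (without CCH) to 0.0714 (without CCC). Significance was lost without C or CC (exact permutation p = 0.0536 each), CCC, and H, HH, HHC or HCH (p = 0.0571 each). Shares in C, CC, CCC, H, HH, HC, HHC, CCH and HCH became 0.0172, 0.0483, 0, 0.366, 1.59, 0.130, 0.176, 0.124 and 0.152% with 3 or more markers, 0.0258, 0.0483, 0.0173, 0.244, 1.04, 0.0371, 0.0879, 0.124 and 0.203% with no exclusion gene, and 0.0172, 0.0241, 0, 0.244, 0.953, 0.0371, 0.0769, 0.110 and 0.0811% with 4 or more markers. Thinning moved C, H, HH, CCH and HCH to 0.0501, 0.573, 2.52, 0.159 and 0.297%. Dropping Mctp1 as an exclusion gene moved H, HH, HC, HHC and HCH to 2.11, 7.03, 0.613, 1.08 and 1.38%. Requiring 2 or more further mast genes moved C, CCC, H, HH, HC, HHC, CCH and HCH to 0.0172, 0, 0.275, 1.18, 0.130, 0.231, 0.137 and 0.152%, and 4 or more markers whatever the exclusion genes moved C, H, HH, HC, HHC, CCH and HCH to 0.0172, 0.356, 1.71, 0.0929, 0.286, 0.124 and 0.172%.

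Genes higher and lower than other nuclei numbered 436 and 1062 with 3 or more markers and 470 and 1079 with DESeq2, 462 were higher in the 6 libraries with 7 or more such nuclei, and 394 were lower with RLE scaling. Against macrophage nuclei 374 were higher with 3 or more markers, 653 higher and 804 lower in those 6 libraries, and 2567 and 2887 without the low-count filter. By HFD history the counts were 2 and 0 with 3 or more markers, 67 and 134 with CCH set among the HFD libraries, 246 and 214 with DESeq2, 88 and 29 without doublets and 580 and 253 without the filter. After weight loss DESeq2 called 4 higher. Leaving out 1 library gave 611 to 831 higher and 557 to 874 lower than other nuclei, 1003 to 1453 and 1060 to 1852 against macrophage nuclei, 0 to 171 and 0 to 124 by HFD history (0 and 0 without C) and 1 to 3 and 0 to 1 after weight loss. The cause was not tested. Over the named genes no alternative reversed a direction, and the call held in 432 checks and was lost in 12 against other nuclei, held in all 202 against macrophage nuclei, held in 221 and was lost in 57 by HFD history, and held in 23 and was lost in 4 after weight loss. The definitions with 4 or more markers, with further mast genes and without Mctp1, the 6-library fits and the weight loss comparison were chosen after seeing the data. The labels carry no replicate numbers for a block, and no paired analysis was run. Apart from HH, which had no chow library of its age (31 weeks), the groups match by age and diet order. The matched HFD-history libraries had rule shares 10.6 (H to C), 1.98 (HC to CC), 6.47 (HHC to CCC) and 1.96 (HCH to CCH) times those of their counterparts, which was not tested as pairs. With 7 to 36 nuclei outside HH, single libraries limit what depth can show.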
